A study of Hordeum vulgare with 12 samples.

Results

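The genes described here are protein-coding barley genes that had counts in leaves of accession BCS24 and next to none in leaves of accession BCS8, or the reverse. A gene was taken when it had at most 3 counts in each of the 6 libraries of one accession and an FPKM of at least 1 in each of the 6 libraries of the other. FPKM is a count of fragments scaled to transcript length and library depth, and so a level per length. Of 30157 genes in the deposited table, 27301 were typed as protein-coding, of which 27299 were considered and 78 met the rule. Of those, 25 were silent in BCS8 and had counts in BCS24, and 53 were silent in BCS24 and had counts in BCS8. The 25 were 0.190% of the 13154 protein-coding genes that reached the FPKM level in all BCS24 libraries, and the 53 were 0.398% of the 13312 that did so in all BCS8 libraries. Because the genes were chosen by their counts and FPKM in the 2 accessions, the difference between accessions is a description and was not tested.

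The study sequenced poly(A)-selected leaf RNA of seedlings from BCS24 under drought, BCS24 in control, BCS8 under drought and BCS8 in control, with 3 libraries in each group. The control label "ck" was read as control. How drought was applied, the age of the seedlings and whether replicates came from separate plants are not given, so p-values measure only the spread between these libraries, which may be technical. The libraries held 49553836 to 61212440 counts.

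Cereal accessions differ in gene content as well as in regulation, and families of immune receptors, glycosyltransferases and oxygenases are known for members that are present in some lines and missing from others. A gene can have no counts in an accession because the gene is absent, because its sequence differs so far from the reference that reads do not align, or because it is not transcribed in that tissue. In these data the 3 cannot be told apart. Because the samples were bulk leaf tissue, fewer cells of a type and less RNA per cell cannot be told apart either.

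The silent side was close to empty. Of the 25 genes silent in BCS8, 20 had no count in any BCS8 library, and 139 of the 150 library values were 0. Together they held 29731 counts in BCS24 and 27 in BCS8. Of the 53 genes silent in BCS24, 38 had no count in any BCS24 library, and 291 of the 318 library values were 0. Those 53 held 58 counts in BCS24 and 163839 in BCS8. With 3 counts taken as the floor in each library, the 20 genes without counts were at least 5.63 to at least 265-fold higher in BCS24 than in BCS8 in counts scaled to library depth. On the same scale the 38 genes were at least 16.3 to at least 835-fold lower in BCS24 than in BCS8. The floor covers counting error only. The transcript table gave the same picture: 40 transcripts of the 25 genes had counts in BCS24 and 5 of them had any in BCS8, while 15 transcripts of the 53 genes had any count in BCS24 and 131 had counts in BCS8. No silent transcript exceeded 3 counts in a library.

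**Figure D1:**
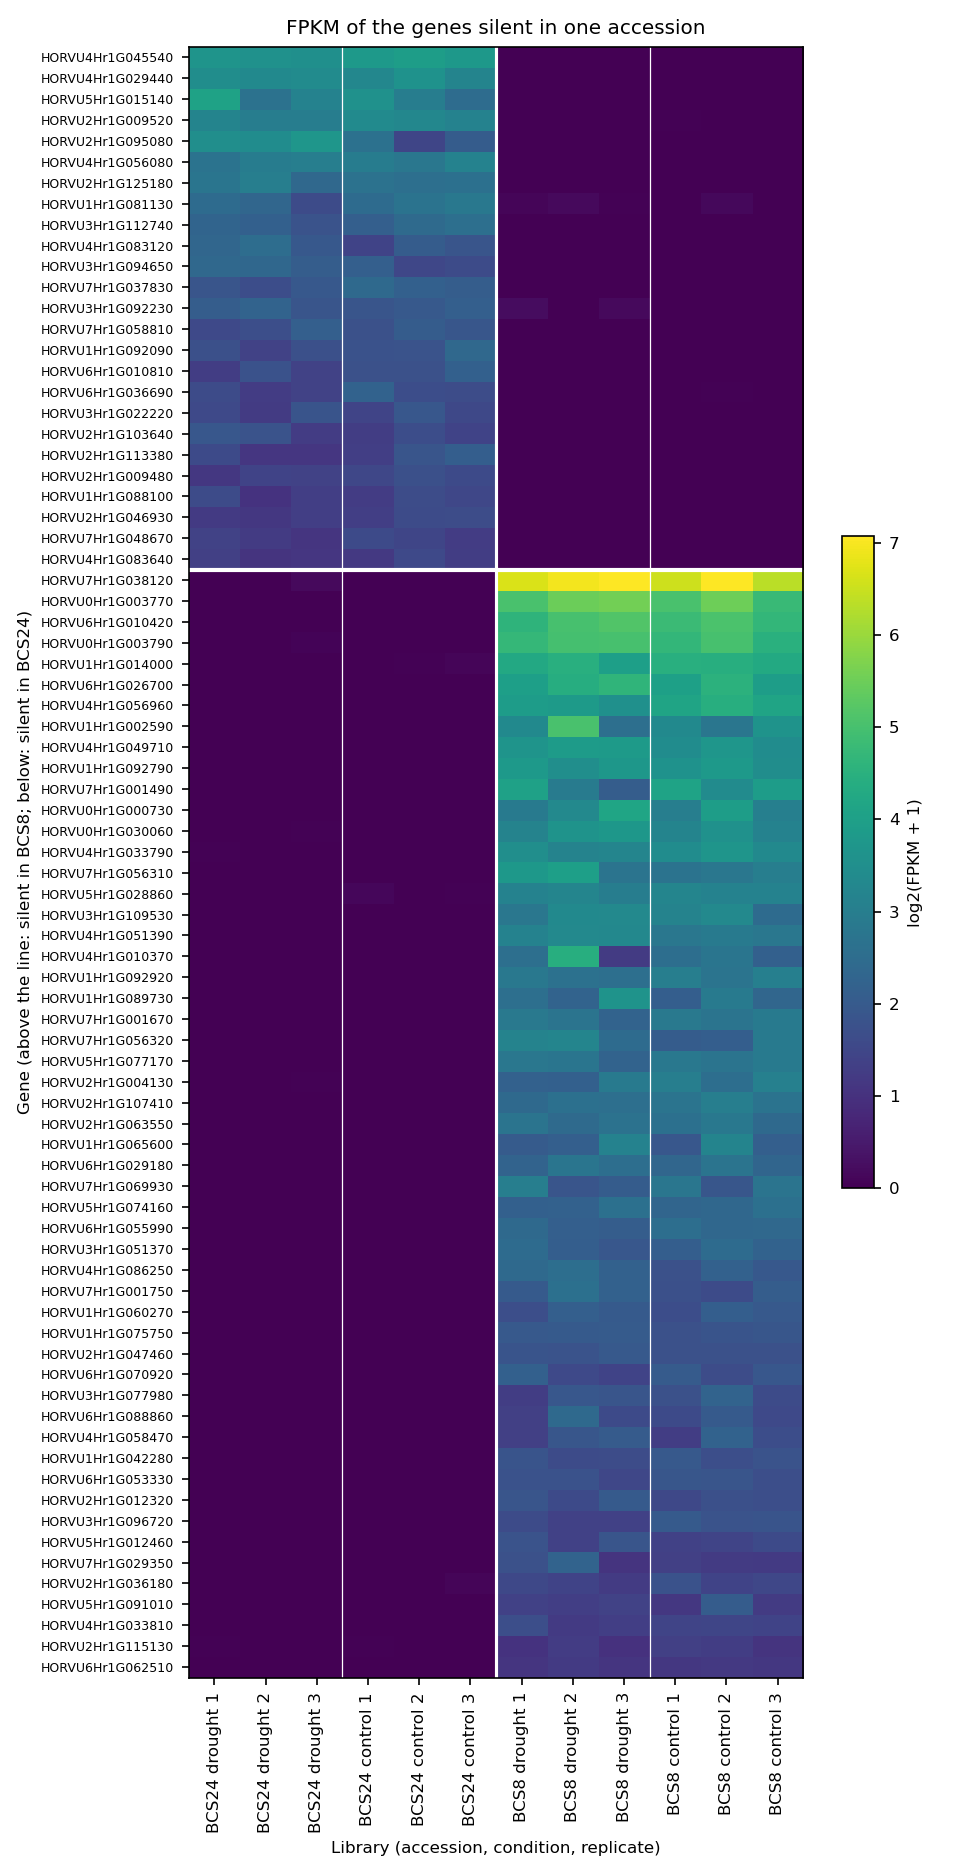
Each row is a gene silent in one accession, each column a library, and the colour is log2(FPKM + 1). The 25 genes above the line are filled in the BCS24 columns and the 53 below it in the BCS8 columns, under drought as well as in control.

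The rule has 2 thresholds, and genes lay close to both. Among genes silent in BCS8, the serine/threonine kinase gene HORVU1Hr1G081130 was nearest the count limit, with 9 counts in all and at most 3 in a library, followed by HORVU2Hr1G009520 with 7. HORVU2Hr1G039120 and HORVU2Hr1G127370 lay just outside with 4 counts in 1 library each. The lowest FPKM inside was 1.05 in HORVU1Hr1G088100 and 1.10 in HORVU4Hr1G083640, and the nearest outside were HORVU0Hr1G011650 at 0.981 and HORVU7Hr1G078340 at 0.933. Among genes silent in BCS24, HORVU1Hr1G002590 and HORVU2Hr1G115130 each had 11 counts in all. HORVU0Hr1G008590 and HORVU2Hr1G015310 lay just outside with 4. HORVU2Hr1G115130 and HORVU7Hr1G029350 had the lowest FPKM inside, 1.02 and 1.11, and HORVU4Hr1G061280 and HORVU2Hr1G119680 lay just outside at 0.944 and 0.858. A highest count of 4 to 10 in the low accession was found for 41 further genes low in BCS8 and 26 low in BCS24. A highest count of 11 to 100 was found for 227 and 211, so the counts run on without a gap beyond the limit.

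**Figure D2:**
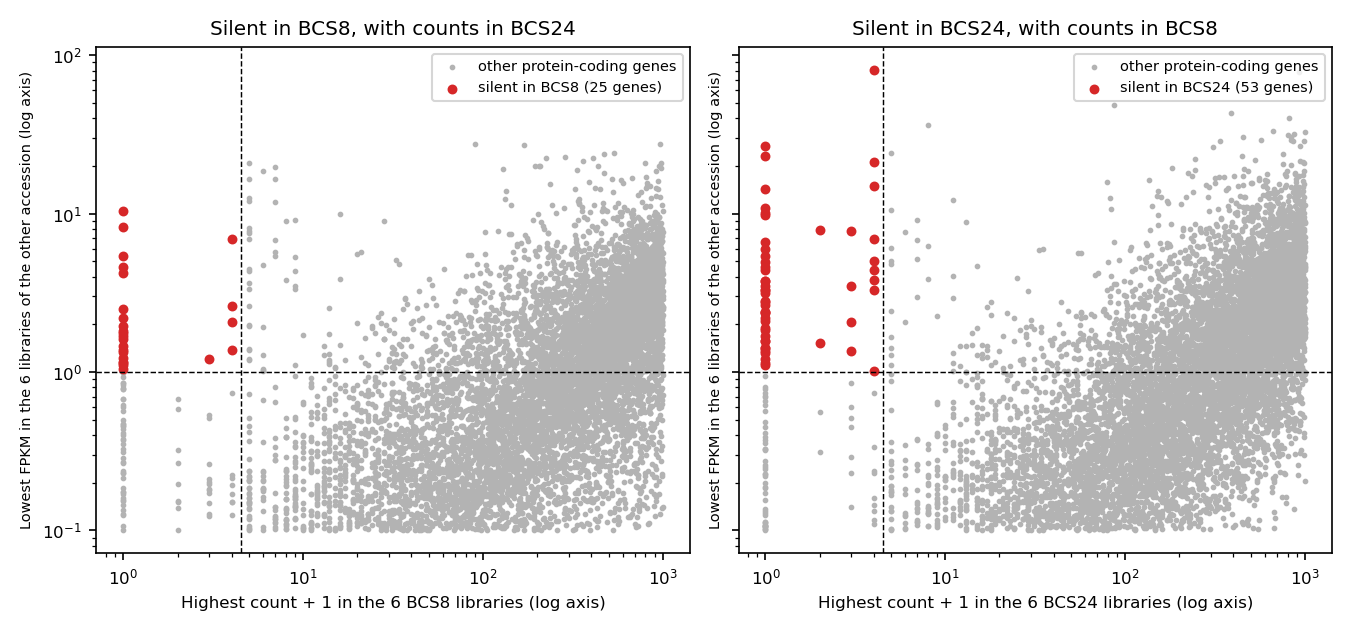
The highest count in the low accession is set against the lowest FPKM in the other accession for genes near the rule, on log axes. The 25 and 53 genes fall inside both limits, and the points continue past the count limit.

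The genes were shorter, simpler and lower than the other expressed genes. In the 25 genes silent in BCS8, the median FPKM in BCS24 was 3.11, beside 8.16 over all protein-coding genes expressed there, and the median length of the most counted transcript was 611 bases, beside 1862. In the 53 genes silent in BCS24, the median FPKM in BCS8 was 5.18, beside 8.41, and the median length was 840 bases, beside 1846.5. A mean of at least 5 FPKM was reached by 7.0 of the 25 in BCS24 and by 27.0 of the 53 in BCS8, and 6.0 and 6.0 stayed under 2. A single annotated transcript was found for 68.0% of the 25, beside 15.6% of all expressed genes, and for 54.7% of the 53, beside 15.7%. GO terms were attached to 13 of the 25 genes and 33 of the 53, that is 52.0% and 62.3%, beside 91.7% of all expressed genes in either accession. A limit of 3 counts is easier to meet for a short gene at a low level, and the part of length and level in these shares was not tested. A transcript shorter than the stated mean insert of 300 bases belonged to 7 of the 25 genes and 4 of the 53, beside 1.25% and 1.16% of all expressed genes. FPKM is least certain at such lengths.

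Among the 25 genes silent in BCS8, the 2 with the highest level in BCS24 had no GO term. HORVU4Hr1G045540, at 4H:362721998-362722279 on the plus strand, had 11.7, 10.9 and 10.4 FPKM in BCS24 under drought, 12.9, 14.2 and 12.6 in BCS24 control, and no count in BCS8. HORVU4Hr1G029440, at 4H:186654095-186654239 on the minus strand, averaged 9.5 ± 1.04 FPKM in BCS24 (SD, n = 6) and had no count in BCS8. Their transcripts are 209 and 145 bases long, so their FPKM rests on short models.

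HORVU2Hr1G095080, at 2H:667903135-667906135 on the plus strand, is annotated as a monooxygenase of the synthesis and homeostasis of brassinosteroids, the steroid hormones of plant growth. It had 10.3, 9.92 and 12.1 FPKM in BCS24 under drought, 5.23, 1.77 and 3.15 in BCS24 control, and no count in BCS8. The drought libraries of BCS24 all lay above its control libraries. HORVU4Hr1G056080, annotated K13229 and as a dioxygenase, averaged 6.67 ± 0.852 FPKM in BCS24 (SD, n = 6) and had no count in BCS8. That ortholog group is a step of benzoxazinoid synthesis, which makes defence compounds in grasses. HORVU2Hr1G046930, which carries terms of 1,3-beta-glucan synthase, the enzyme of callose, averaged 1.60 ± 0.397 FPKM in BCS24 and had 2 counts over all BCS8 libraries.

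Flavonoid glucosyltransferases, which attach glucose to quercetin and related pigments, were silent in either accession. HORVU2Hr1G009520 and HORVU2Hr1G009480 lie on 2H, 58.3 kb apart on opposite strands, with no other gene of the deposited table between them. They averaged 7.97 ± 0.932 and 1.78 ± 0.359 FPKM in BCS24 (SD, n = 6), with 7 and 0 counts over all BCS8 libraries. HORVU6Hr1G062510, on 6H with the same GO terms, had no count in BCS24 and averaged 1.20 ± 0.0612 FPKM in BCS8 (SD, n = 6). Its 6 BCS8 libraries lay between 1.13 and 1.28 FPKM. No other full set of GO terms was shared between the 2 directions, except by genes with no term.

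HORVU5Hr1G015140 is annotated K00901 as a diacylglycerol kinase, which makes the lipid signal phosphatidic acid, and also carries the term ferredoxin:thioredoxin reductase activity, so its annotations name unlike proteins. It had 15.7, 5.36 and 7.73 FPKM in BCS24 under drought and 10.96, 7.00 and 4.63 in BCS24 control, with no count in BCS8. Its drought and control libraries overlapped. HORVU2Hr1G125180 and HORVU1Hr1G081130 share terms of a plasma membrane serine/threonine kinase of defence and averaged 5.43 ± 0.981 and 4.47 ± 1.40 FPKM in BCS24. They had 0 and 9 counts over all BCS8 libraries. HORVU3Hr1G022220 and HORVU7Hr1G048670 share terms of a membrane ubiquitin ligase in sugar signalling and averaged 2.05 ± 0.546 and 1.54 ± 0.323 FPKM in BCS24, with no count in BCS8. HORVU3Hr1G112740 and HORVU1Hr1G088100 share K02433, an amidotransferase entry, but their GO terms name transport at the Golgi. They averaged 3.78 ± 0.871 and 1.66 ± 0.424 FPKM in BCS24. HORVU4Hr1G083120, with no term, averaged 3.18 ± 1.06 FPKM in BCS24 and completes the 10 highest. HORVU2Hr1G113380, at 1.96 ± 0.861 FPKM in BCS24, carries terms of the peroxisome, where fatty acids are broken down.

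The 53 genes silent in BCS24 held the highest levels, and in FPKM a shikimate kinase gene led them. Shikimate kinase works in the plastid route to the aromatic amino acids. HORVU7Hr1G038120, at 7H:93637140-93637894 on the plus strand, had 3 counts over all BCS24 libraries. It had 101, 123 and 133 FPKM in BCS8 under drought and 92.0, 133 and 80.6 in BCS8 control. HORVU6Hr1G026700 on 6H averaged 18.4 ± 4.16 FPKM in BCS8 and HORVU4Hr1G086250 on 4H averaged 3.59 ± 0.895 (SD, n = 6 each), and neither had a count in BCS24. All 3 are annotated K00891 and carry the same GO terms. In each BCS8 library the first stood 5.58 to 6.75-fold above the second. The sources used here do not say where a read that matches several like genes was counted, so the split between such copies is uncertain. The transcript of HORVU7Hr1G038120 is 268 bases long, so its FPKM rests on a short model. In counts scaled to depth (CPM) it averaged 36.5 in BCS8 under drought and 31.1 in BCS8 control. On that scale HORVU6Hr1G010420, at 46.3 and 43.9, and HORVU1Hr1G002590, at 58.6 and 33.9, stood above it.

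Large-subunit ribosomal protein genes annotated K02922 formed the next set, all on unplaced sequence. HORVU0Hr1G003770 averaged 37.4 ± 8.35 FPKM in BCS8, HORVU0Hr1G003790 averaged 27.4 ± 4.26 and HORVU0Hr1G030060 averaged 9.77 ± 2.04 (SD, n = 6 each). Over all BCS24 libraries they had 0, 3 and 2 counts. The transcript of HORVU0Hr1G003770 is 194 bases long, so its FPKM rests on a short model as well. HORVU0Hr1G003770 and HORVU0Hr1G003790 are neighbours 4.44 kb apart, and their ratio kept between 1.25 and 1.46 in the BCS8 libraries. HORVU0Hr1G003790 and HORVU0Hr1G030060 also carry kinesin terms, so each model joins annotations of unlike proteins.

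Single genes of protein turnover, splicing and signalling filled the rest of the 10 highest. HORVU6Hr1G010420, at 6H:18415302-18426205 on the plus strand, is annotated K06700 and with ubiquitin-dependent protein breakdown. It had no count in BCS24, and it had 23.1, 31.2 and 34.7 FPKM in BCS8 under drought and 27.0, 32.7 and 24.8 in BCS8 control. It was the gene with the bound of at least 835-fold lower in BCS24. HORVU4Hr1G049710, annotated K11096 as a core protein of the spliceosome, had no count in BCS24 and averaged 11.8 ± 1.78 FPKM in BCS8. HORVU1Hr1G014000, a plasma membrane kinase of receptor signalling, had 5 counts over all BCS24 libraries and averaged 19.0 ± 2.34 FPKM in BCS8. HORVU4Hr1G056960 and HORVU1Hr1G092790, without terms, had no count in BCS24 and averaged 15.3 ± 3.42 and 11.6 ± 1.34 FPKM in BCS8. HORVU1Hr1G002590, annotated only to the plasma membrane, had 9.23, 32.0 and 5.03 FPKM in BCS8 under drought and 9.29, 5.84 and 11.5 in BCS8 control. Its drought replicate 2 in BCS8 stood apart from its other 5 libraries.

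**Figure D3:**
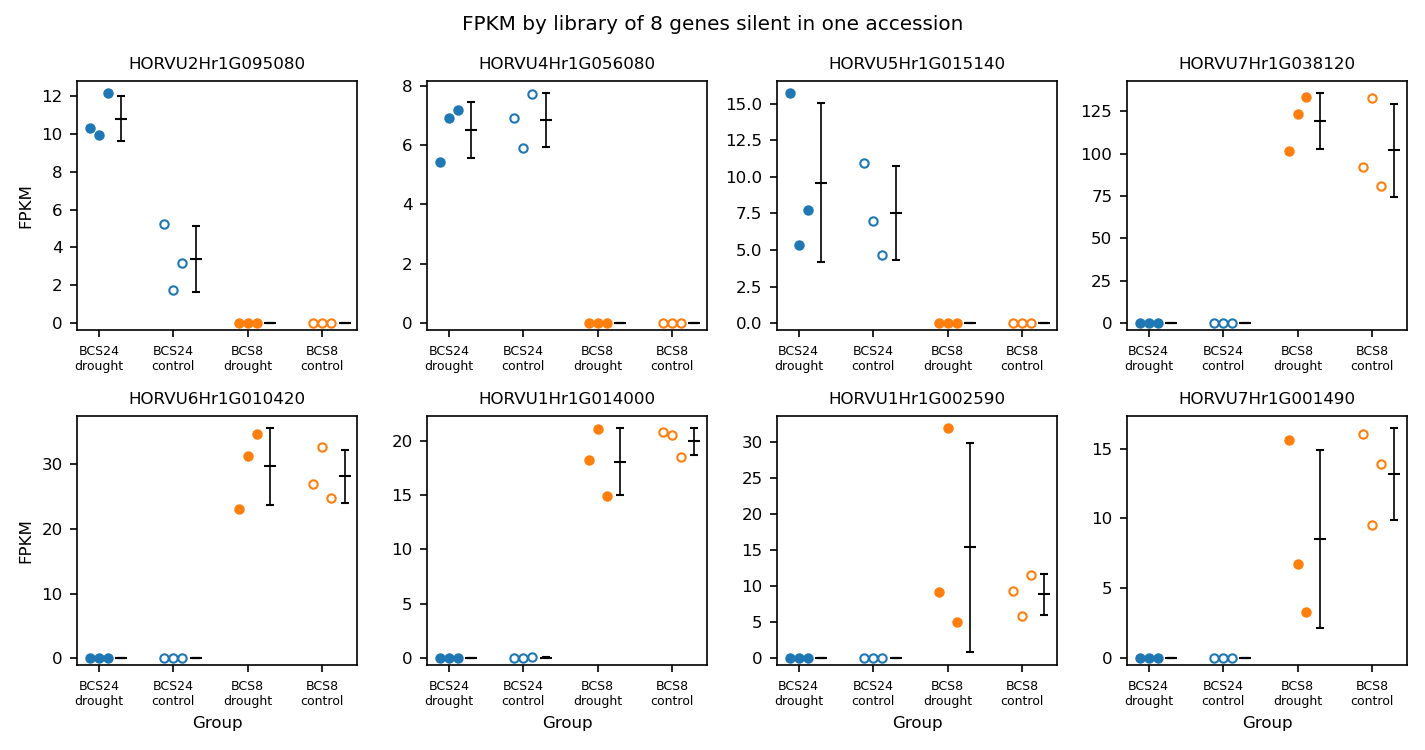
FPKM of selected genes in each library, with the mean of each group. BCS24 drought and control points lie above zero in the genes silent in BCS8, and the BCS8 points do so in the genes silent in BCS24.

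Immune receptor and light signalling genes were among those silent in BCS24. HORVU1Hr1G092920, annotated K13457, and HORVU7Hr1G001670 carry the terms ADP binding and defence response, which mark the nucleotide-binding receptors that detect pathogen effectors. They had 0 and 3 counts over all BCS24 libraries and averaged 6.06 ± 0.968 and 5.64 ± 0.958 FPKM in BCS8 (SD, n = 6 each). HORVU7Hr1G029350, annotated K13465 with defence and signal transduction terms, had no count in BCS24 and averaged 1.89 ± 1.01 FPKM in BCS8. HORVU2Hr1G063550 and HORVU6Hr1G055990 are annotated as zinc-binding transcription factors of far-red light signalling. They had 3 and 5 counts over all BCS24 libraries and averaged 5.18 ± 0.658 and 4.07 ± 0.609 FPKM in BCS8. HORVU2Hr1G004130, a nuclear DNA-binding gene with terms for light, wounding and fungus, had 2 counts over all BCS24 libraries and averaged 5.49 ± 1.75 FPKM in BCS8. HORVU4Hr1G051390, annotated K14490, is a histidine phosphotransfer protein, which relays cytokinin signals from receptors to response regulators. It had no count in BCS24 and averaged 7.37 ± 1.41 FPKM in BCS8.

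Organelle proteins were also found on that side. HORVU2Hr1G107410 and HORVU5Hr1G074160, annotated K04077 as chaperonins that fold proteins in mitochondria and chloroplasts, had no count in BCS24 and averaged 5.45 ± 0.954 and 4.23 ± 0.729 FPKM in BCS8. HORVU4Hr1G033790 and HORVU4Hr1G033810, neighbours 125 kb apart on 4H, carry ferredoxin:thioredoxin reductase terms, the enzyme that passes reducing power from light to chloroplast enzymes. They had 1 and 0 counts over all BCS24 libraries and averaged 9.60 ± 1.44 and 1.70 ± 0.325 FPKM in BCS8. HORVU1Hr1G060270 and HORVU4Hr1G058470 share terms of glutathione transport at the chloroplast membrane and had no count in BCS24. They averaged 2.85 ± 0.513 and 2.42 ± 0.875 FPKM in BCS8. HORVU1Hr1G089730, an iron-sulfur cluster assembly protein by its description, had no count in BCS24 and averaged 5.67 ± 3.01 FPKM in BCS8.

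Counted over lists made of a few exact GO terms each, the defence response held 3 of the 25 genes silent in BCS8, 12%, beside 2.26% of all genes expressed in BCS24. It held 3 of the 53 silent in BCS24, 5.66%, beside 2.28% of all genes expressed in BCS8. Protein ubiquitination held 2 of the 25, 8%, beside 1.52% of all genes expressed in BCS24, and 0 of the 53, beside 1.49% in BCS8. Protein kinases held 2 of the 25, 8%, beside 4.39%, and 2 of the 53, 3.77%, beside 4.34%. Transcription factors held 0 of the 25, beside 3.61%, and 3 of the 53, 5.66%, beside 3.70%. DNA binding held 0 of the 25, beside 4.77%, and 1 of the 53, 1.89%, beside 4.73%. ADP binding held 0 of the 25, beside 0.403%, and 2 of the 53, 3.77%, beside 0.391%. Translation held 0 of the 25, beside 2.71%, and 3 of the 53, 5.66%, beside 2.73%, the 3 being the ribosomal protein genes. The chloroplast term was attached to 1 of the 25, 4%, and to 4 of the 53, 7.55%, beside 13.5% of expressed genes in either accession. The mitochondrion term was attached to 0 of the 25, beside 8.21%, and to 2 of the 53, 3.77%, beside 8.20%. None of the 78 carried the listed terms for water deprivation, abscisic acid, heat, cold or salt, which in either accession were attached to between 0.692% (heat) and 2.46% (abscisic acid) of expressed genes. With shares that small, 0 among 25 or 53 genes is near the background. None carried the general terms for transmembrane transport, proteolysis or heme binding either, at 0.436% to 1.34% of expressed genes. The general terms for glycosyl transfer, at 1.49% in BCS24 and 1.43% in BCS8, were also absent. The flavonoid glucosyltransferase genes named above are thus not in that list. Narrower terms of metal or glutathione transport and of SUMO-specific protease activity, carried by genes named here, are not in those lists. No GO term at all was recorded for 12 of the 25 and 20 of the 53. These counts are small and were not tested.

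Genes with a KO entry were set beside all genes of the same entry. The K00891 family of 9 genes summed to 129 ± 18.3 FPKM in BCS24 and 307 ± 32.3 in BCS8 (SD, n = 6 each), and without its 3 silent genes to 129 and 175. The K02922 family of 8 genes summed to 68.2 ± 8.10 FPKM in BCS24 and 197 ± 34.6 in BCS8, and without its 3 silent genes to 68.2 and 122. In both families the other genes together were also at a lower level in BCS24. The K06700 pair differed: HORVU2Hr1G043020, the other gene, averaged 23.3 ± 5.21 FPKM in BCS24 and 23.9 ± 3.11 in BCS8, so the family sums were 23.3 and 52.8. For K11096 the sums were 26.7 ± 3.12 FPKM in BCS24 and 51.7 ± 6.11 in BCS8, and 26.7 and 39.8 without the silent gene. For K14490 and K03130 the sums without the silent gene were near each other, 58.1 FPKM in BCS24 against 57.1 in BCS8, and 39.6 against 39.5. In 2 other families the sum was higher in BCS24, where a member was silent. The K13457 family of 218 genes summed to 721 ± 51.1 FPKM in BCS24 and 537 ± 60.1 in BCS8, and the K01792 family of 9 genes to 145 ± 17.9 and 119 ± 15.4. The K04077 family of 22 genes summed to 291 ± 50.4 FPKM in BCS24 and 310 ± 45.5 in BCS8, with 2 silent genes. The K13465 family of 10 genes summed to 25.4 ± 6.40 FPKM in BCS24 and 79.5 ± 24.5 in BCS8, and to 25.4 and 77.6 without the silent gene.

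For genes silent in BCS8, the K00901 family of 21 genes summed to 259 ± 11.5 FPKM in BCS24 and 268 ± 20.9 in BCS8. The K13229 family of 22 genes summed to 59.4 ± 6.35 FPKM in BCS24 and 75.9 ± 5.25 in BCS8, and to 52.8 and 75.9 without the silent gene. The K02433 family summed to 109 ± 6.28 FPKM in BCS24 and 71.2 ± 5.09 in BCS8, of which a gene that did not meet the rule, HORVU7Hr1G040650, gave 10.6 and 0.0319. The sums are levels per length and were not tested, since they contain the genes that the rule chose. Those of K00891 and K02922 in BCS8 include silent genes with transcripts of 268 and 194 bases, where FPKM is least certain.

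**Figure D4:**
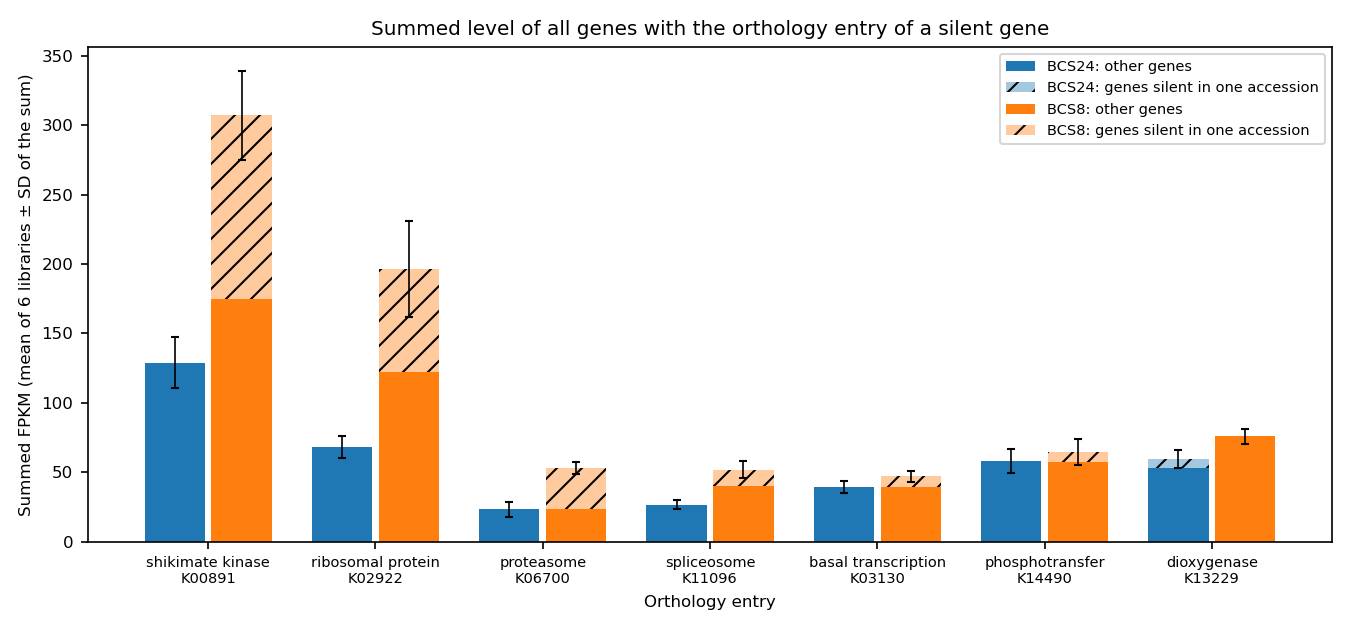
Summed FPKM of KO families, BCS24 before BCS8, split into the genes silent in one accession and all other genes of the entry (mean of 6 libraries). The silent genes make up much of the BCS8 sum in K00891, K02922 and K06700 and little of it in K03130 and K14490. In K13229 the gene silent in BCS8 makes up little of the BCS24 sum.

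The genes lay on all 7 chromosomes and mostly apart from each other. Chromosome 2H held 7 of the 25 genes silent in BCS8, 28.0%, beside 15.5% of all expressed genes, and 5H held 1, 4%, beside 15.8%. Chromosome 1H held 9 of the 53 silent in BCS24, 17.0%, beside 12.4%, and 4 of the 53 were on unplaced sequence. With at most 9 genes between them, 9 pairs were found, of which 5 were direct neighbours, and no run was longer than 2. Neighbours here are genes with no other gene of the deposited table between them. The neighbours were those named above on 2H, 4H and unplaced sequence, and a pair with no shared annotation at each of 2 places on 7H. HORVU7Hr1G056310 and HORVU7Hr1G056320 lie 1.41 kb apart on the minus strand, without terms, and averaged 8.63 ± 4.14 and 5.60 ± 2.24 FPKM in BCS8. The metal transport gene HORVU7Hr1G001490, the receptor gene HORVU7Hr1G001670 and HORVU7Hr1G001750 lie within 7H:3329219-3690570, all silent in BCS24, with other genes of the table between the first and the others. In 1 pair the genes were silent in opposite accessions: HORVU7Hr1G037830 and HORVU7Hr1G038120, with 9 genes between them and no shared annotation. Coordinates are those of the deposited table, whose genome build is not given in the sources used here.

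Drought was compared with control within the accession that had counts, a contrast that the rule did not use. Since membership needed an FPKM of at least 1 in all 6 libraries of that accession, a gene switched off by drought or by control could not be among them. All 78 passed the filter on low values, through the libraries of the accession with counts. No gene passed an adjusted p of 0.05 in edgeR's quasi-likelihood test: 0 of 25 in BCS24, where 2.65% of all 17342 genes tested were called (1.40% higher and 1.25% lower under drought), and 0 of 53 in BCS8, where 1.53% were called (0.998% higher and 0.536% lower). At an unadjusted p under 0.05 in the same test there were 1 and 2. The share of all genes at that level was not taken, so these counts are not read as an excess. DESeq2 called 1 in BCS24 and 0 in BCS8, where it called 10.4% and 6.83% of all genes. In limma on log2(FPKM + 1) 1 of the 25 and 2 of the 53 were called, beside 4.09% and 2.39% of all genes. A test that misses the threshold does not show that drought had no effect.

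In BCS24 the log2 difference of drought minus control was positive for 11 and negative for 14 of the 25 genes, with a median of -0.09. It lay within 0.5 either way for 20, that is 80.0%. Over all genes tested in BCS24, 49.5% were positive and 76.1% lay within 0.5. Of the protein-coding genes expressed in all BCS24 libraries, 83.7% lay within 0.5, so the 25 are near the background. The drought and control libraries did not overlap for 8 of the 25 genes, 1 higher under drought and 7 lower. The same held for 7.69% of all genes tested, higher, and 23.2%, lower, so 7 of 25 is near the background. Overlap was taken on FPKM as deposited, without the TMM scaling behind the log2 differences. The TMM factors were 0.908 to 0.956 for BCS24 drought and 1.02 to 1.03 for BCS24 control libraries. The shares higher and lower are thus not on the scale of the log2 differences and give no direction of the drought effect. In BCS8 the difference was positive for 29 and negative for 24 of the 53 genes, with a median of 0.06. It lay within 0.5 for 42, that is 79.2%. Over all genes tested in BCS8, 52.3% were positive and 77.4% lay within 0.5, and 84.7% of those expressed in all BCS8 libraries did. There the libraries did not overlap for 4 genes higher under drought, beside 7.83% of all genes, and for 3 lower, beside 11.9%. Summed over the genes, the level was 102 ± 8.92 FPKM in BCS24 under drought and 102 ± 1.74 in BCS24 control (SD, n = 3 each). It was 509 ± 47.1 FPKM in BCS8 under drought and 467 ± 64.1 in BCS8 control.

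The largest difference belonged to the brassinosteroid monooxygenase gene HORVU2Hr1G095080, the only one of the 25 whose libraries were all higher under drought. Its log2 difference in BCS24 was 1.80 ± 0.40 (SE), with an adjusted p of 0.0714 in edgeR's test. The adjusted p was 0.000996 in DESeq2 and 0.00965 in limma on log2(FPKM + 1), and it ran to 0.269 over the 20 alternatives, 4 of which placed it past the threshold. Without BCS24 control replicate 1, its highest control library, the difference was 2.24 with an adjusted p of 0.0449 in edgeR. In BCS8 the gene had no count under either condition, so whether the accessions differ in its drought response cannot be asked of these data.

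In BCS8 the phosphotransfer gene HORVU4Hr1G051390 had 7.78, 9.13 and 8.85 FPKM under drought and 6.02, 6.47 and 5.99 in control. Its log2 difference was 0.52 ± 0.21 with an adjusted p of 0.295 in edgeR, against 0.0327 in limma on log2(FPKM + 1). The SUMO protease gene HORVU3Hr1G096720, whose product removes the small modifier SUMO from proteins, had 2.05, 1.57 and 1.56 FPKM under drought and 2.99, 2.48 and 2.58 in control. Its log2 difference was -0.59 ± 0.24 with an adjusted p of 0.306 in edgeR, against 0.0447 in limma. For both genes the drought and control libraries did not overlap. The 3 shikimate kinase genes differed by 0.28 ± 0.33, 0.24 ± 0.29 and 0.57 ± 0.28 on the log2 scale, and no adjusted p among them was under 0.374 in edgeR.

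Single libraries set several of the larger differences. HORVU4Hr1G010370, without terms, had 4.95, 20.8 and 1.35 FPKM in BCS8 under drought and 4.91, 5.69 and 3.47 in BCS8 control. Its log2 difference was 0.96, and -0.51 without drought replicate 2. HORVU1Hr1G002590 went the same way, 0.82 with and -0.26 without that library. HORVU1Hr1G089730 stood at 0.57, and at -0.06 without BCS8 drought replicate 3, and HORVU7Hr1G001490 at -0.58, and at -1.36 without BCS8 drought replicate 1. In BCS24 HORVU5Hr1G015140 stood at 0.47, and at -0.06 without drought replicate 1. None of these passed the test with or without the library named. Some other larger differences in BCS8 kept their sign: HORVU7Hr1G056310, HORVU7Hr1G056320 and HORVU7Hr1G001750 stayed higher under drought in all 20 alternatives. The log2 difference of HORVU7Hr1G056310, 0.88, was 0.03 at its lowest alternative, so its size was not stable. HORVU7Hr1G029350 stood at 0.84, at 0.39 without BCS8 drought replicate 2, and at -0.31 at its lowest alternative. In each of these genes the drought and control libraries overlapped, and no alternative placed it past the threshold.

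**Figure D5:**
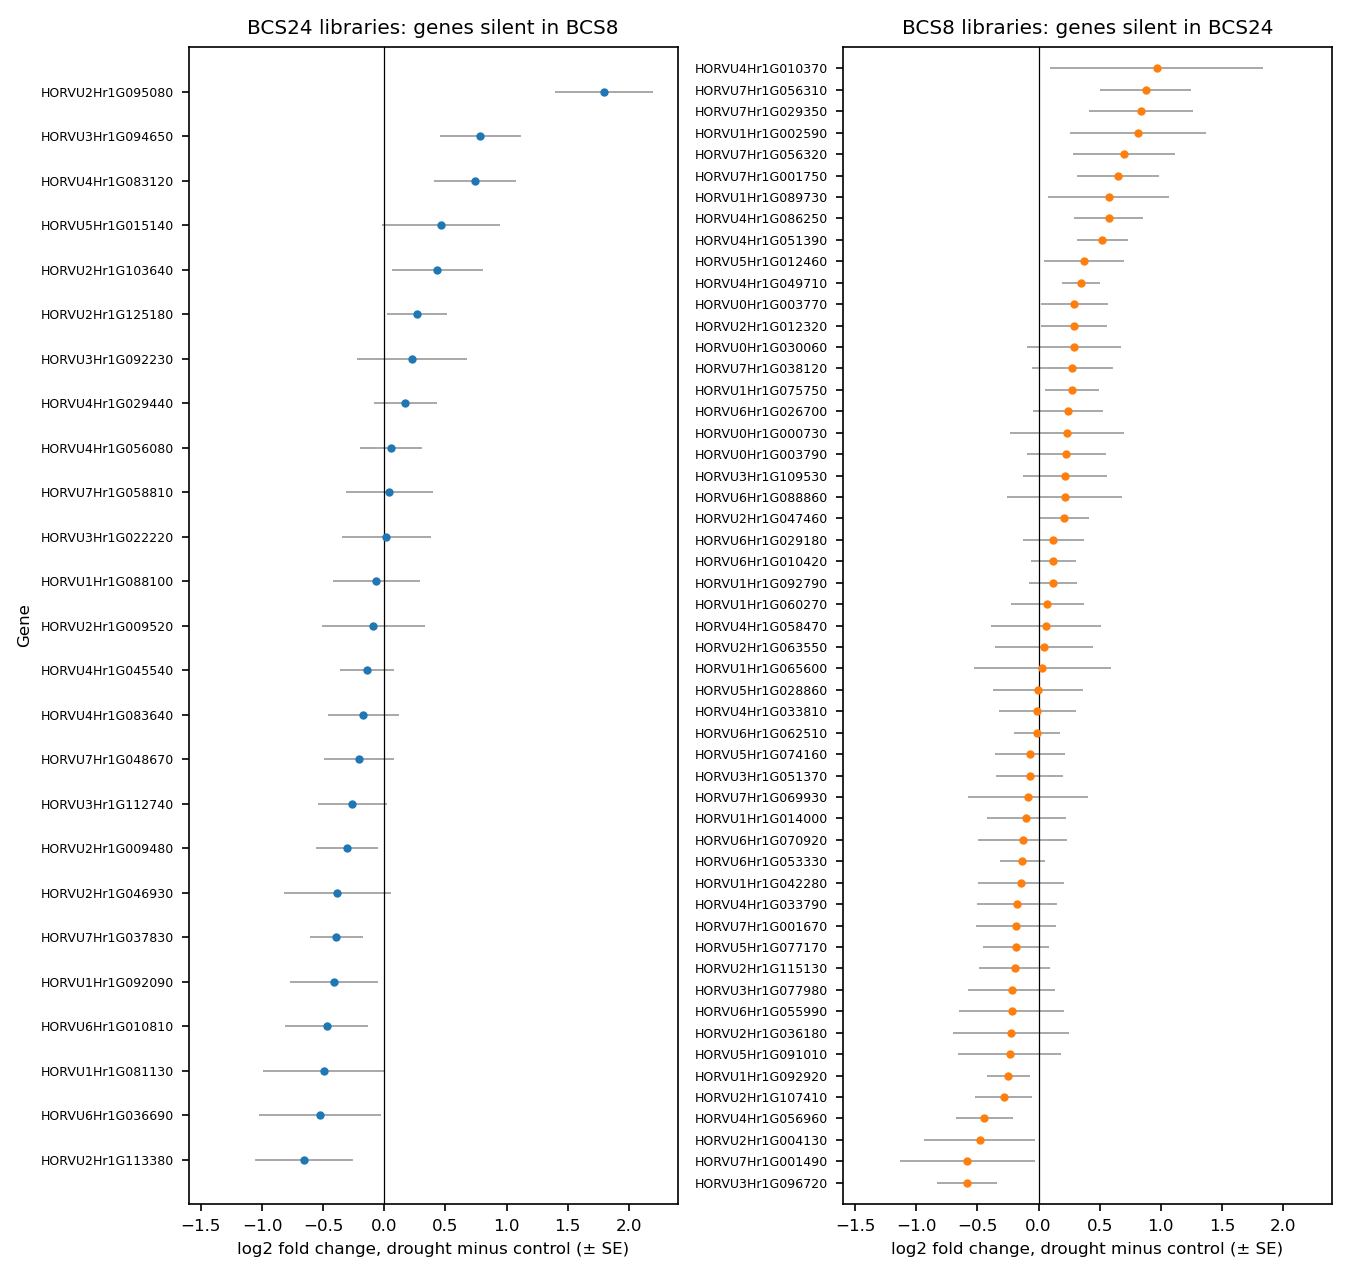
The log2 difference of drought minus control with its standard error is drawn for each gene in the accession that had counts. HORVU2Hr1G095080 at 1.80 is the largest in BCS24, and the values in BCS8 run between -0.59 and 0.96.

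The labelled tissue was checked against lists of GO terms, none of which holds a gene silent in one accession. The 47 genes of light harvesting and the photosystems summed to 10863 to 14089 FPKM in BCS24 under drought, 9723 to 11180 in BCS24 control, 9729 to 13254 in BCS8 under drought and 9296 to 9647 in BCS8 control. The 18 genes of nutrient storage in seeds summed to 342 to 427 FPKM in BCS24 under drought, against 222 to 327 in BCS24 control. The 49 root hair genes summed to 552 to 640 FPKM in BCS24 under drought, against 667 to 710 in BCS24 control. In BCS8 both lists overlapped between drought and control. Their part in the drought values above was not tested.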

How the data were processed

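Per the labels' protocols, poly(A) RNA of 12 leaf samples was made into stranded paired-end libraries. The authors used StringTie 2.1.6 together with DESeq2 and edgeR, according to the submitters' processing notes, which name no role for any of them. The sources used here give no aligner, genome build or strand setting, and do not say where reads matching several genes were counted. The deposited gene and transcript tables hold whole-number counts and FPKM values per library, per the file headers, with GO terms, KO entries, coordinates and gene types beside them.

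From these, genes were selected by the rule given above. Of the protein-coding genes, 2 are not reported here, and neither met both limits. The selected genes and the GO lists were chosen with earlier results of these data known. Named genes are the 10 with the highest mean FPKM in each direction, the top gene of each GO list, neighbours, and the 2 genes nearest each threshold on either side. Others were named after their values were seen. Drought was tested on the counts as deposited in R 4.3.3 by quasi-likelihood F tests from edgeR 4.0.16, after TMM scaling. All 12 libraries entered 1 fit of 4 groups, with genes of FPKM at least 1 in at least 3 libraries and Benjamini-Hochberg adjustment over 17342 genes. The scripts were tested on simulated data. Alternatives were DESeq2 1.42.0, limma 3.58.1 on log2(FPKM + 1) or log2(FPKM + 0.1), other scaling and filters, a replicate block, the rRNA share as covariate and leaving out each library. KO sums and lists used pandas 2.3.3. SD is over libraries. Arms of 3 libraries limit the precision of every drought value. No sequence of these genes was used here.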

Additional observations from a re-analysis of the deposited data

How the results depend on the processing

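The number of genes silent in BCS8, 25, was 20 at 0 counts, 66 at up to 10 counts, 43 at an FPKM of at least 0.5 and 10 at an FPKM of at least 2. The number silent in BCS24, 53, was 38, 79, 67 and 38 under the same changes. Leaving out each library in turn gave 25 to 33 and 53 to 58. The number called for drought in BCS24, 0, was 1 in DESeq2, 1 in limma with either pseudocount, and 0 to 1 over the left-out libraries, in each case HORVU2Hr1G095080. In BCS8 it was 0 in DESeq2, 2 in limma with either pseudocount, and 0 to 0 over the left-out libraries. Over all genes tested, the calls behind the background shares, 460 in BCS24 and 266 in BCS8, moved far more: 1804 and 1182 in DESeq2, 15 and 29 with the rRNA share as covariate, 406 and 2 with the 6 libraries of the accession alone, 241 and 151 without the level filter. In limma they were 710 and 415 on log2(FPKM + 1) and 618 and 294 on log2(FPKM + 0.1). They ran from 19 to 674 and from 0 to 320 over the left-out libraries, so the background shares are loose.

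Leaving aside HORVU7Hr1G056310 and HORVU7Hr1G029350, the drought difference is given for 11 genes. Of those, 4 changed sign in some alternative, none of them called, and the cause was not tested. With the rRNA share as covariate, which ran from 0.202% to 2.22% of counts, the log2 difference was -0.15 for HORVU5Hr1G015140, -0.80 for HORVU1Hr1G002590 and -2.06 for HORVU4Hr1G010370. Over the left-out libraries they ran from -0.065 to 0.83, from -0.26 to 1.23 and from -0.51 to 1.47, and HORVU1Hr1G089730 from -0.063 to 0.90. The other 7 kept their direction in all 20 alternatives. Samples with the same replicate number did not deviate together throughout (correlations -0.39 to 0.23 between drought and control). With the number as a block 0 genes were called in either accession, and 263 and 231 of all genes. The rule limits the silent side to 3 counts per library, which is 0.0490 to 0.0605 as counts scaled to depth (CPM).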

Other observations

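The same 2 limits, applied to genes typed other than protein-coding, found 3 genes silent in BCS8 and 4 silent in BCS24. Those silent in BCS8 were 2 of the 1466 genes typed as non-translating coding sequences and 1 of the 286 small nucleolar RNA genes. Those silent in BCS24 were 4 small nucleolar RNA genes, which guide chemical marks on ribosomal RNA. The libraries were poly(A)-selected, and how well they measure such RNAs was not tested. The 1466 and 286 are all genes of the type, expressed or not.

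In 2 KO families a gene outside the rule was also near 0 in 1 accession or far lower there. HORVU6Hr1G092010, of the K13465 family, averaged 1.09 FPKM in BCS24 and 42.1 in BCS8. HORVU7Hr1G040650, of the K02433 family, averaged 10.6 FPKM in BCS24 and 0.0319 in BCS8. Both were chosen after their values were seen, and neither difference was tested here.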
